A study of Mus musculus with 22 samples.

Results

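A set of 9 genes that govern how stored fat is broken down in adipocytes was described in white fat of bone marrow chimeras: the lipases Pnpla2, Lipe and Mgll, the lipase co-activator Abhd5, the lipase inhibitor G0s2, and the lipid droplet proteins Plin1, Plin4, Plin5 and Cidec. They were taken by gene symbol from the platform annotation, and each of the 9 symbols was found among the 19337 genes of the array, each measured by 1 feature. Expression was measured with 22 whole-transcript arrays of 1 colour. The fat came from male C57BL/6J mice whose marrow had been replaced and left 6 weeks to reconstitute, and which were then fed for 14 weeks on a diet in which fat made up 60% of the calories. The inguinal subcutaneous depot (ingWAT) gave 3 arrays with Gipr-/-S100a9-/- marrow, called double-knockout marrow here, 3 with Gipr-/- marrow and 4 with wild-type (WT) marrow. The epididymal depot (epiWAT) gave 4, 4 and 4 arrays with the same kinds of marrow. Gipr encodes the receptor of the incretin hormone GIP, and S100a9 encodes a subunit of calprotectin, abundant in neutrophils and other myeloid cells. The marrow was placed in WT recipients for Gipr-/- and WT marrow, while no source used here gives the recipient of double-knockout marrow. In each chimera with a WT recipient the alleles are missing only from cells derived from the graft, whereas the adipocytes that express most of the 9 genes are of the recipient. The marrow was replaced as a whole, so no single blood cell type carries the deletion alone.

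Adipocytes keep triglyceride in a droplet coated with perilipins and release it as fatty acids and glycerol when catecholamines raise cyclic AMP. Pnpla2 encodes adipose triglyceride lipase (ATGL), which removes the first fatty acid. Lipe encodes hormone-sensitive lipase, which acts on the diglyceride, and Mgll encodes monoglyceride lipase, which finishes the breakdown. Abhd5 (CGI-58) activates ATGL, and perilipin 1, the product of Plin1, holds Abhd5 back until it is phosphorylated. G0s2 binds ATGL and inhibits it. G0s2 is induced by insulin and by PPARγ in fat cells. Plin4 is a droplet coat protein abundant in white fat, Plin5 is the perilipin of oxidative tissues, and Cidec (FSP27) drives the growth of the large single droplet of white adipocytes.

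Promoter windows from 250 bases before to 50 bases after the transcription start were read for the 9 genes from RefSeq (GRCm38.p6), which gave 13 windows. Those of G0s2, Lipe and Plin4 are printed, since G0s2 was the gene whose array values differed most between kinds of marrow, and Lipe and Plin4 were the pair whose values varied most closely together. The G0s2 window is chr1:193273139-193273438 on the minus strand. Lipe has windows at chr7:25395938-25396237 and chr7:25390063-25390362 on the minus strand, and Plin4 has one at chr17:56109733-56110032 on the minus strand. Each is written 5′ to 3′ along the gene, and capitals mark matches on either strand to the GC box GGGCGG, the E-box CACGTG or the FoxO motif GTAAACA.
G0s2: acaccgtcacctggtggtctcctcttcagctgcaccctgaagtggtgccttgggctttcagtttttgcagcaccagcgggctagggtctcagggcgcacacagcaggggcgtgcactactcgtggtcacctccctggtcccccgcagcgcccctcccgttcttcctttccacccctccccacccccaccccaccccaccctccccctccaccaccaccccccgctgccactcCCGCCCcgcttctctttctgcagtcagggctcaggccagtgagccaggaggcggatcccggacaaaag
Lipe upstream start: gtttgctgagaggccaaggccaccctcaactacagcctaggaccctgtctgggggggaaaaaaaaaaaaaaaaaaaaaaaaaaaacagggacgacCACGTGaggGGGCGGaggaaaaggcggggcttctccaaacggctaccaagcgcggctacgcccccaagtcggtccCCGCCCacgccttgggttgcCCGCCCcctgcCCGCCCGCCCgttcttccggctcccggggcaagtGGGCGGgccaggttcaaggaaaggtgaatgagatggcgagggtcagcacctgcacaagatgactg
Lipe downstream start: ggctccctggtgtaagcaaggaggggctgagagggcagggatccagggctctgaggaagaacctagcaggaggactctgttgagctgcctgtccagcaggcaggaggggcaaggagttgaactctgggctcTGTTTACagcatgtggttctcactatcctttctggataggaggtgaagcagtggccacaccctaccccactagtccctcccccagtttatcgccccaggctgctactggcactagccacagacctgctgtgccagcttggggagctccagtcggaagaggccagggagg
Plin4: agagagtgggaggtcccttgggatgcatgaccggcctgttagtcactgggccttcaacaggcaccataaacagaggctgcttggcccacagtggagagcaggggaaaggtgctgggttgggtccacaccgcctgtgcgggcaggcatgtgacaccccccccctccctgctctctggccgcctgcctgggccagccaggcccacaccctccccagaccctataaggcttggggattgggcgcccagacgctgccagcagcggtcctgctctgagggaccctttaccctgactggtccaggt
The G0s2 window held 1 GC box, with its first base 18 bases before the start (position -18), and no match to the other letters. A GC box was found in 8 of the 13 windows, those of 6 genes, against 35.7% of all 32851 windows. The E-box was found in 2 of the 13 windows, of Lipe and Mgll, against 7.15% of all windows, and the FoxO motif also in 2, of the same genes, against 3.65%. The nuclear receptor half-site AGGTCA was found in 3 of the 13 windows, of Abhd5 and Plin5, against 16.3% of all windows. In the upstream Lipe window 2 of the GC boxes overlap each other. The Plin4 window held none of the 4 motifs.

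The adipocyte identity of the tissue was clear in all groups. The array held 11 of 12 adipocyte markers, whose mean lay between 14.28 and 16.10 on the log2 scale on single arrays, whereas array medians lay between 6.11 and 6.54. The 5 mesothelial markers, which mark visceral fat, averaged 5.74 to 8.06 in epiWAT arrays and 4.04 to 4.78 in ingWAT arrays. Gipr averaged 4.78 to 5.41 and S100a9 5.18 to 6.16 over the 6 groups, at or below the range of the array medians, so neither level checked the label of the marrow. Several arrays carried transcripts of other tissues, given as a score, the mean over a marker list of the log2 value minus each gene's mean over the 22 arrays. The B cell score (5 of 6 markers measured) was 5.06 and 4.99 in ingWAT double-knockout replicates 1 and 3, against -1.18 in replicate 2 and -1.15 to -0.36 in the other ingWAT arrays. The epididymis score (5 of 7 markers measured) reached 7.0 in epiWAT double-knockout replicate 1, and the testis score (9 of 9) reached 8.06 in epiWAT Gipr-/- replicate 1. The skeletal muscle score (10 of 10) ran from -0.83 to 5.62 with double-knockout, from -0.58 to 2.56 with Gipr-/- and from -1.96 to 8.02 with WT marrow in ingWAT, and from -2.99 to -2.16 in epiWAT. In epiWAT the B cell score was -1.06 to -0.43 with double-knockout, -0.53 to 2.12 with Gipr-/- and -1.01 to -0.48 with WT marrow, so 3 of the 4 Gipr-/- arrays lay above the 8 others. Values without the 2 ingWAT arrays with high B cell genes, or without the 2 epiWAT arrays with high epididymis or testis genes (called doubted arrays below), stand beside the results they bear on most, and the part of these tissues in the other results was not tested.

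All 9 genes passed the filter, which left out the 25% of genes with the lowest mean. Of them, 8 ranked high on the array, from the 91.7th percentile of mean level for Abhd5 to the 99.9th for Pnpla2. Plin5 averaged 5.68 on the log2 scale, at the 43.1th percentile and below every array median, so its differences are those of a dim feature. The share of variance between the 6 groups was 74.4% for G0s2, 59.8% for Abhd5 and 57.6% for Plin4. It ran from 24.8% (Plin5) to 44.0% (Mgll) for the other 6 genes. Few arrays per group give such a share some size even without group differences, and the groups mix depot with marrow. The spread within groups was also widest for G0s2, with a pooled SD of 1.14 log2 units, against 0.21 for Abhd5 and 0.65 for Plin1.

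**Figure D1:**
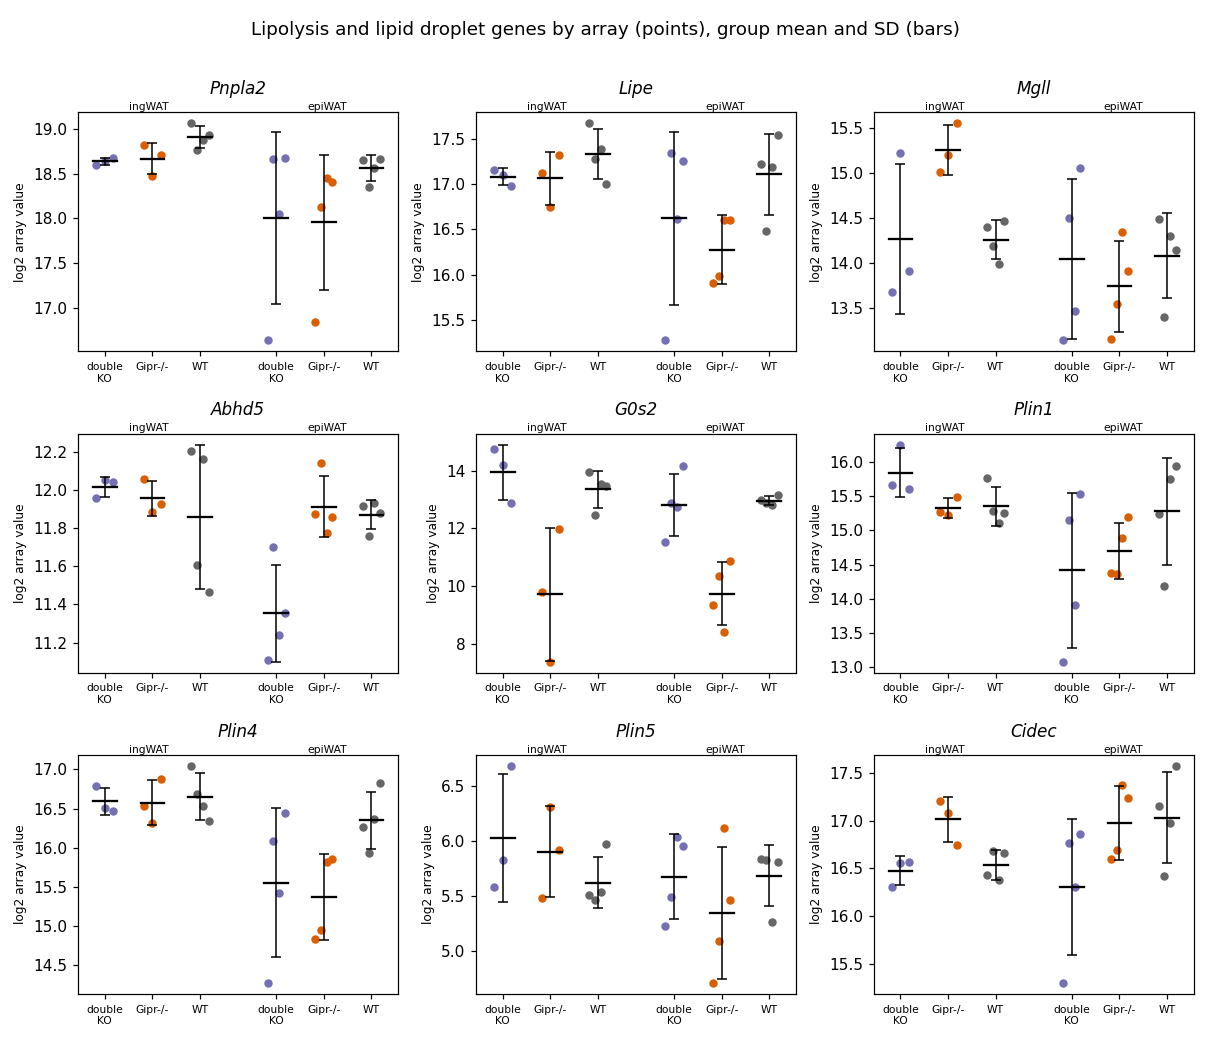
Log2 array value (vertical axis) of each of the 9 genes in every array (points), with the group mean and SD (bars), for double-knockout, Gipr-/- and WT marrow in ingWAT and epiWAT. G0s2 averaged 9.73 and 9.75 with Gipr-/- marrow in ingWAT and epiWAT, below every array of the other 4 groups except that ingWAT Gipr-/- replicate 3, at 11.99, lay above epiWAT double-knockout replicate 1, at 11.52.

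G0s2, the inhibitor of ATGL, was low in fat with Gipr-/- marrow and not in fat with double-knockout marrow. In ingWAT it was measured at 14.76, 14.18 and 12.89 with double-knockout marrow. The ingWAT values with Gipr-/- marrow were 9.81, 7.38 and 11.99, and those with WT marrow 13.97, 12.46, 13.53 and 13.47. The 3 Gipr-/- arrays lay below all 7 others of the depot, and they spread over more than 4 log2 units. Gipr-/- replicates 1 and 2, the lowest, and WT replicate 4 had higher sample codes in the labels than the rest of the ingWAT arrays. What the codes mean is not given, and their part was not tested. In epiWAT G0s2 was measured at 11.52, 12.87, 12.75 and 14.16 with double-knockout marrow and at 9.35, 10.36, 8.40 and 10.88 with Gipr-/- marrow. The 4 epiWAT arrays with WT marrow stood at 12.99, 12.87, 12.82 and 13.16, a range of under 1 log2 unit. Here too every Gipr-/- array lay below every array of the other kinds of marrow, whereas double-knockout and WT arrays overlapped.

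The only one of the 9 genes to pass an adjusted threshold of 0.05 in any comparison of marrow within a depot was G0s2, in ingWAT with double-knockout against Gipr-/- marrow. It averaged 13.94 ± 0.96 with double-knockout and 9.73 ± 2.31 with Gipr-/- marrow (SD, n = 3 each), a log2 difference of 4.22 (SE 0.90, 18.6-fold, limma adjusted p = 0.0284). In that comparison 505 of 14502 genes, or 3.48%, were called, and 121 of them, or 0.834%, were higher as G0s2 was. The call was lost, with differences of 3.74 to 4.54, when the macrophage or adipocyte score was a covariate (adjusted p = 0.145 and 0.0784). Without both arrays with high B cell genes, which leaves 1 double-knockout array, the difference was 4.46, and the part of B cells was not tested. The call was also lost without Gipr-/- replicate 1 (4.26, adjusted p = 0.0962), without Gipr-/- replicate 2 (3.04, adjusted p = 0.0876) and without double-knockout replicate 1 (3.81, adjusted p = 0.131).

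Against WT marrow, G0s2 averaged 9.73 ± 2.31 with Gipr-/- (n = 3) and 13.36 ± 0.64 with WT marrow (SD, n = 4) in ingWAT, a log2 difference of -3.63 (SE 0.84, 12.4-fold lower). It did not pass the adjusted threshold (limma adjusted p = 0.0763). In epiWAT the averages were 9.75 ± 1.10 with Gipr-/- and 12.96 ± 0.15 with WT marrow (SD, n = 4 each), a log2 difference of -3.21 (SE 0.56, 9.26-fold lower, limma adjusted p = 0.219). Its unadjusted p ranked 7 among the 14502 genes of that comparison, none of which was called (0.00%). For double-knockout against Gipr-/- marrow in epiWAT, with averages of 12.83 ± 1.08 and 9.75 ± 1.10, the log2 difference was 3.08 (SE 0.56, 8.45-fold, limma adjusted p = 0.192), ranked 10 by unadjusted p among genes of which again 0.00% were called. Without the epiWAT arrays with high epididymis or testis genes these differences were -3.08 (adjusted p = 0.235) and 3.38 (adjusted p = 0.305). Double-knockout and WT marrow differed by 0.59 in ingWAT (95% interval -1.24 to 2.42) and by -0.13 in epiWAT (-1.36 to 1.10) on the log2 scale, and neither passed (limma adjusted p = 0.828 and 0.999).

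The G0s2 differences had the same sign and a similar size in both depots, and their dependence on the depot was tested. The ingWAT difference minus the epiWAT difference was -0.42 for Gipr-/- against WT marrow (95% interval -2.69 to 1.85, limma adjusted p = 0.962). For double-knockout against Gipr-/- marrow it was 1.14 (-1.22 to 3.49, adjusted p = 0.730), and these intervals leave room for sizeable differences between depots. The mean of both depots, a comparison chosen after the data had been seen, was -3.42 for Gipr-/- against WT marrow (SE 0.54, limma adjusted p = 0.0104), where 83 of 14502 genes (0.572%) were called. For double-knockout against Gipr-/- marrow it was 3.65 (SE 0.56, adjusted p = 0.00295), where 278 genes (1.92%) were called. G0s2 was the only one of the 9 genes called in either. These comparisons share the Gipr-/- arrays, so they are not independent of each other. The labels do not say whether ingWAT and epiWAT arrays share mice. The fit took all 22 arrays as independent, so its SEs and p-values do not hold as given if mice are shared. By group mean, G0s2 ran in descending order from ingWAT double-knockout (13.94), ingWAT WT (13.36), epiWAT WT (12.96) and epiWAT double-knockout (12.83) to epiWAT Gipr-/- (9.75) and ingWAT Gipr-/- (9.73), and neighbours other than epiWAT double-knockout and epiWAT Gipr-/- overlapped in their arrays.

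**Figure D2:**
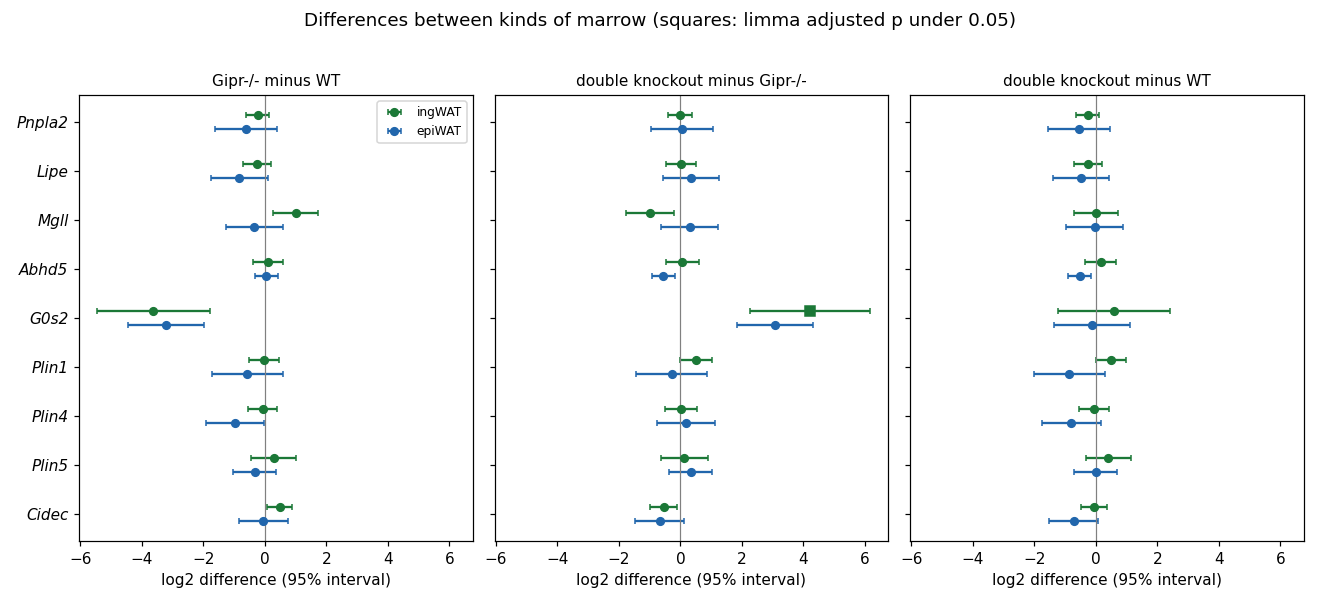
Log2 difference (horizontal axis, with its unadjusted 95% interval) of the 9 genes between kinds of marrow in ingWAT and epiWAT. G0s2 lay at -3.63 and -3.21 for Gipr-/- minus WT and at 4.22 and 3.08 for double knockout minus Gipr-/-, while each of the other 8 genes lay between -0.99 and 1.0, and the square marks the one value with an adjusted p under 0.05.

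Markers of other cells were set beside the G0s2 values. In whole fat, fewer cells of a type and less RNA per cell cannot be told apart. The adipocyte score was -1.36 to 0.45 with double-knockout, -0.83 to -0.03 with Gipr-/- and -0.32 to 0.43 with WT marrow in epiWAT, and 0.06 to 0.15, 0.10 to 0.22 and 0.17 to 0.35 in ingWAT in the same order of marrow. The Gipr-/- median of the adipocyte score was -0.36 in epiWAT and 0.19 in ingWAT, against WT medians of 0.32 and 0.26. The macrophage score (11 of 12 markers measured) was -1.37 to 0.67, 0.25 to 1.59 and -0.60 to 0.97 in epiWAT in that order, and -0.82 to -0.35, -0.45 to 0.07 and -0.82 to -0.08 in ingWAT. Its markers Ptprc (3.04) and Lyz2 (0.39) were higher with double-knockout than with Gipr-/- marrow in ingWAT, and the rest were lower. The part of the arrays with high B cell genes in this score was not tested. The score of lipid-associated macrophages (7 of 8 markers measured), the lipid-laden cells of obese fat, was -1.56 to 0.52, 1.97 to 3.03 and -1.25 to 1.5 in epiWAT. In ingWAT it was -1.98 to -1.42, 0.02 to 0.79 and -1.85 to 0.49. With the macrophage score as a covariate the G0s2 difference between Gipr-/- and WT marrow was -3.40 in epiWAT and -3.85 in ingWAT, and with the adipocyte score it was -2.72 in epiWAT and -4.32 in ingWAT. With the skeletal muscle score as a covariate it was -3.36 in ingWAT, and the part of muscle in these values was not tested.

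G0s2 was also followed against its target and against the droplet coat within each array, as the log2 ratio of the pair of features set to 0 at the WT mean of each depot. This shows whether 2 features changed unequally and compares no levels between features. The ratio of G0s2 to Pnpla2 was 1.71, 1.09 and -0.24 with double-knockout and -3.46, -5.54 and -1.17 with Gipr-/- marrow in ingWAT, where WT arrays ran from -0.75 to 0.46. In epiWAT it ran from -0.19 to 1.09 with double-knockout, from -4.44 to -1.89 with Gipr-/- and from -0.15 to 0.11 with WT marrow. Every Gipr-/- array thus lay below every other array of its depot in this ratio. The ratio of G0s2 to Plin1 gave the same separation, with Gipr-/- arrays from -5.85 to -1.51 in ingWAT and from -4.16 to -1.68 in epiWAT. The remaining arrays lay between -0.83 and 1.17. Both ratios hold the same G0s2 values, so these separations are not independent of each other or of that of G0s2 itself.

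**Figure D3:**
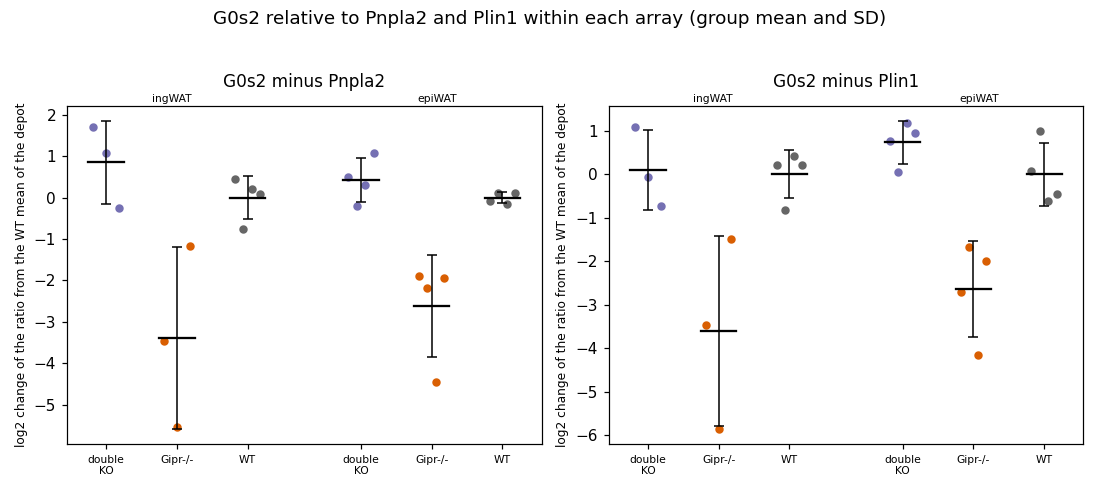
Log2 ratio of G0s2 to Pnpla2 (left) and to Plin1 (right) within each array, relative to the WT mean of the depot, with group means and SDs. Arrays with Gipr-/- marrow averaged -3.39 and -2.61 for G0s2 to Pnpla2 in ingWAT and epiWAT, and none reached an array with other marrow.

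Pnpla2, the first lipase of the pathway and the target of G0s2, did not pass the threshold in any comparison of marrow. In ingWAT it was measured at 18.60, 18.64 and 18.68 with double-knockout, 18.82, 18.48 and 18.71 with Gipr-/- and 19.07, 18.76, 18.88 and 18.93 with WT marrow. The double-knockout arrays all lay just below the WT arrays, by 0.27 on the log2 scale (SE 0.17, limma adjusted p = 0.536). In that comparison 5.91% of genes were lower without overlap, and Pnpla2 was the only one of the 9 genes to be so. With replicate 2 as the only double-knockout array the difference was also -0.27. For Gipr-/- against WT marrow its difference was -0.24 in ingWAT (95% interval -0.61 to 0.12). In epiWAT it was measured at 16.63, 18.66, 18.05 and 18.68 with double-knockout, 16.84, 18.13, 18.45 and 18.41 with Gipr-/- and 18.66, 18.35, 18.57 and 18.66 with WT marrow. The lowest values, in double-knockout replicate 1 and Gipr-/- replicate 1, were those of the arrays with high epididymis and testis scores. The differences from WT marrow were -0.55 with double-knockout and -0.60 with Gipr-/- marrow (limma adjusted p = 0.999 and 0.844), and they were -0.10 and -0.23 without those arrays.

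Lipe, the hormone-sensitive lipase, was measured at 15.91, 15.99, 16.60 and 16.61 with Gipr-/- marrow and at 17.22, 16.48, 17.19 and 17.53 with WT marrow in epiWAT. Its difference was -0.83 (95% interval -1.75 to 0.09, limma adjusted p = 0.713), and WT replicate 2 lay within the Gipr-/- range. Without the doubted epiWAT arrays it was -0.71. In ingWAT its differences between kinds of marrow ran from -0.27 to 0.02. Mgll, the monoglyceride lipase, behaved otherwise in ingWAT. It was measured at 13.67, 15.23 and 13.91 with double-knockout, 15.01, 15.20 and 15.56 with Gipr-/- and 14.40, 14.19, 13.98 and 14.47 with WT marrow. The Gipr-/- arrays were above all WT arrays and above 2 of the 3 double-knockout arrays, which were the 2 with high B cell scores. The Mgll difference was 1.0 for Gipr-/- against WT marrow (SE 0.33, limma adjusted p = 0.183) and -0.99 for double-knockout against Gipr-/- marrow (SE 0.35, adjusted p = 0.149), and without double-knockout replicate 2 that second difference was -1.47 (adjusted p = 0.00320). Without double-knockout replicates 1 and 3, those with high B cell genes, it was -0.03. In epiWAT the Mgll differences were -0.34 and 0.30, and the test of the dependence on the depot gave 1.34 (adjusted p = 0.573) and -1.29 (adjusted p = 0.345), of which the second was -0.33 without the arrays with high B cell genes.

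Abhd5, the co-activator of ATGL, had the smallest spread of the 9 genes and was lowest in epiWAT with double-knockout marrow. It was measured there at 11.11, 11.70, 11.24 and 11.36, against 11.87, 12.14, 11.78 and 11.86 with Gipr-/- marrow and 11.91, 11.76, 11.93 and 11.88 with WT marrow. All 4 double-knockout arrays lay below all 8 others. The log2 difference was -0.56 against Gipr-/- marrow (SE 0.17, limma adjusted p = 0.296) and -0.52 against WT marrow (SE 0.17, adjusted p = 0.999), and neither passed over all genes. Without the doubted epiWAT arrays these were -0.49 and -0.44. In ingWAT Abhd5 averaged 12.02 ± 0.05 with double-knockout, 11.96 ± 0.09 with Gipr-/- (SD, n = 3 each) and 11.86 ± 0.38 with WT marrow (n = 4), and those groups overlapped. The test of that depot dependence did not pass, at 0.62 for double-knockout against Gipr-/- marrow (adjusted p = 0.313) and 0.68 against WT marrow (adjusted p = 0.428).

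Among the droplet proteins, Plin4 was the one most set apart by Gipr-/- marrow in epiWAT. It was measured at 14.83, 14.94, 15.82 and 15.86 with Gipr-/- and at 16.26, 15.93, 16.37 and 16.82 with WT marrow. The groups did not overlap, by a margin of 15.86 against 15.93, and the log2 difference was -0.98 (SE 0.44, limma adjusted p = 0.674), or -0.81 without the doubted epiWAT arrays. Plin1, the perilipin that gates lipolysis, had its highest ingWAT mean with double-knockout marrow, where it was measured at 15.66, 16.25 and 15.61. It stood at 15.27, 15.23 and 15.49 with Gipr-/- marrow and at 15.76, 15.28, 15.10 and 15.25 with WT marrow. Its difference was 0.51 against Gipr-/- marrow (SE 0.24, limma adjusted p = 0.276), without overlap, and 0.49 against WT marrow (adjusted p = 0.370), with overlap. With replicate 2 as the only double-knockout array these were 0.92 and 0.90. In epiWAT it ran from 13.08 to 15.54 with double-knockout and from 14.19 to 15.93 with WT marrow, a difference of -0.86 (SE 0.53), which was -0.41 without the doubted arrays.

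Cidec, which fuses droplets, stood higher with Gipr-/- marrow in ingWAT, at 17.21, 17.08 and 16.75, against 16.30, 16.56 and 16.57 with double-knockout and 16.43, 16.68, 16.37 and 16.66 with WT marrow. The Gipr-/- arrays lay above the 7 others. The differences were -0.54 for double-knockout against Gipr-/- marrow (SE 0.20, limma adjusted p = 0.164) and 0.48 for Gipr-/- against WT marrow (SE 0.19, adjusted p = 0.258), and without the arrays with high B cell genes the first was -0.45. In epiWAT, with double-knockout, Gipr-/- and WT marrow averaging 16.31 ± 0.72, 16.98 ± 0.39 and 17.03 ± 0.48 (SD, n = 4 each), the Gipr-/- mean lay by that of WT marrow. The epiWAT differences of double-knockout marrow were -0.67 against Gipr-/- and -0.72 against WT marrow, and -0.46 and -0.39 without the doubted arrays. Plin5 ran from 4.70 to 6.68 over all 22 arrays. Its differences between kinds of marrow were -0.34 to 0.41, and none passed (limma adjusted p of 0.652 or more).

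The 9 genes were then counted as a list in each comparison, beside the share of all genes. In ingWAT, Gipr-/- against WT marrow called 0 of 9 by limma, where 0.234% of genes were called, and 3 of 9 had an unadjusted p under 0.05, against 15.0% of genes. There 2 were higher without overlap (Mgll and Cidec, against 10.2% of genes) and 1 was lower (G0s2, against 5.15%), and the median difference was -0.02, against 0.03 over all genes. With double-knockout against Gipr-/- marrow in ingWAT, 2 were higher without overlap (G0s2 and Plin1, against 8.35% of genes) and 1 lower (Cidec, against 13.9%), 3 of 9 had an unadjusted p under 0.05, against 18.9% of genes, and the median was 0.02, against -0.03. Double-knockout against WT marrow in ingWAT called 0 of 9 (0.00% of genes), with 0 at an unadjusted p under 0.05, against 13.5%. In epiWAT most of the 9 genes had lower means than with WT marrow, and limma called none. For Gipr-/- against WT marrow 8 of 9 differences were negative, with a median of -0.57 against -0.02 over all genes. There 2 of 9 were lower without overlap (2.75% of genes) and 2 of 9 had an unadjusted p under 0.05 (7.25%). Without the doubted epiWAT arrays Abhd5 and Cidec were positive, and each difference that stayed negative was smaller in size. The median of -0.57 thus depends on those arrays. For double-knockout against WT marrow all 9 were negative, with a median of -0.52 against -0.02, and limma called 0 of 9 (0.00% of genes). Without the doubted epiWAT arrays 3 of the 9 were positive in that comparison, G0s2 at 0.30, Mgll at 0.26 and Plin5 at 0.14. The rest stayed negative and were smaller in size than with all arrays, so the median of -0.52 depends on the doubted arrays. With all arrays 1 of 9, Abhd5, had an unadjusted p under 0.05 (3.06% of genes) and was lower without overlap (1.27%). The median was 0.19 for double-knockout against Gipr-/- marrow, and 0.00 over all genes, with 1 higher (G0s2, 3.14% of genes) and 1 lower (Abhd5, 2.91%) without overlap and 2 of 9 at an unadjusted p under 0.05 (10.7%). The adipocyte markers had a like direction, and their part in these values was not tested. Of them 10 of 11 were negative for Gipr-/- against WT marrow, with a median of -0.59, and 11 of 11 for double-knockout against WT marrow, with a median of -0.34. These marker medians include the doubted epiWAT arrays and were not taken without them.

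Between depots, none of the 9 genes passed by limma with any kind of marrow. With Gipr-/- marrow, 0.614% of genes were called, and 5 of the 9 (Pnpla2, Lipe, Mgll, Plin1 and Plin4) were higher in ingWAT without overlap, against 9.23% of genes. There 3 of 9 had an unadjusted p under 0.05, against 15.1% of genes. Among them Mgll averaged 15.26 ± 0.28 in ingWAT (n = 3) and 13.74 ± 0.51 in epiWAT (SD, n = 4), a log2 difference of 1.52 (SE 0.42, limma adjusted p = 0.110). Plin4 differed by 1.21 (SE 0.39, adjusted p = 0.162). With double-knockout marrow, 3.92% of genes were called, all 9 differences were positive, and Abhd5, Plin1 and Plin4 were higher in ingWAT without overlap, against 6.57% of genes. Abhd5 differed by 0.67 (SE 0.19, adjusted p = 0.0567) and Plin1 by 1.42 (SE 0.46, adjusted p = 0.0859), and 3 of 9 had an unadjusted p under 0.05, against 21.2% of genes. Without the doubted epiWAT arrays Plin1 differed by 0.98, Plin4 by 0.61, Mgll by -0.07 and Cidec by -0.17. With WT marrow, 1.97% of genes were called, and the 9 differences ran from -0.49 (Cidec) to 0.40 (G0s2), with Pnpla2 alone higher in ingWAT without overlap (0.35, against 4.38% of genes) and 0 of 9 at an unadjusted p under 0.05 (16.6% of genes). The adipocyte markers had medians of 0.70, 0.18 and -0.09 with Gipr-/-, double-knockout and WT marrow in these comparisons, beside medians of 0.62, 0.64 and 0.18 for the 9 genes. The dependence of the marrow differences on the depot was called for 0 of 9 genes by limma for Gipr-/- against WT marrow (0.00% of genes), double-knockout against Gipr-/- marrow (0.717%) and double-knockout against WT marrow (0.00%). At an unadjusted p under 0.05 it was 1 of 9 (Mgll, 7.95% of genes), 2 of 9 (Mgll and Abhd5, 13.8%) and 2 of 9 (Abhd5 and Plin1, 8.54%).

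Within groups, 6 of the 9 genes varied together from array to array, and G0s2 followed them less closely. After each group's mean was subtracted, the 15 pairs among Pnpla2, Lipe, Mgll, Plin1, Plin4 and Cidec had a Pearson r from 0.67 to 0.96 over the 22 arrays (Spearman rho 0.63 to 0.94). Without epiWAT double-knockout replicate 1 and epiWAT Gipr-/- replicate 1, which were low in Pnpla2, Plin4 and other adipocyte genes, these pairs ran from 0.56 to 0.93. The closest pair was Lipe and Plin4 (r = 0.96). These 6 genes were not a list set in advance, so their high r is a description of these arrays only. Over all 36 pairs of the 9 genes r ran from -0.25 to 0.96, with a median of 0.47. The 8 pairs with G0s2 ran from -0.23 (Plin5) to 0.48 (Plin4), with a median of 0.34. The pairs with Abhd5 ran from -0.25 to 0.48. These values describe arrays that share fat content and dissection, and no test was made. Outside the 9 genes, the 5 that followed G0s2 most closely among 14493 genes were Aldh1b1 (r = 0.88), Ecsit (0.83), Mrps31 (0.83), Irs1 (0.81) and Spin4 (0.79). Those most like Pnpla2 were Lgals12 (0.94), Rnf144a (0.93), Nova1 (0.93), Mfsd8 (0.93) and Abcd2 (0.93). Spearman rho ran from 0.70 (Ecsit) to 0.83 (Irs1) for G0s2 and from 0.66 (Rnf144a) to 0.83 (Lgals12) for Pnpla2. Without subtraction of group means Aldh1b1 had an r of 0.03 with G0s2, and the other genes chosen for it 0.47 (Mrps31) to 0.88 (Irs1). Without the doubted epiWAT arrays the genes chosen for G0s2 had r from 0.80 to 0.86 over 20 arrays. Those chosen for Pnpla2 had r from 0.57 (Nova1) to 0.88 (Abcd2). The arrays left out were the 2 farthest from their group mean in Pnpla2 but not in G0s2, so these ranges do not compare the genes. Lgals12 encodes a galectin of lipid droplets, and Irs1 encodes the main docking protein of the insulin receptor in fat. Irs1 averaged 7.09 ± 0.99 with Gipr-/- (n = 3) and 9.87 ± 0.91 with WT marrow (SD, n = 4) in ingWAT, and 6.41 ± 0.58 and 8.25 ± 0.28 in epiWAT (SD, n = 4 each), log2 differences of -2.77 (limma adjusted p = 0.0561) and -1.84 (adjusted p = 0.219). With double-knockout marrow Irs1 averaged 8.93 ± 0.62 in ingWAT (SD, n = 3) and 8.40 ± 0.32 in epiWAT (n = 4). Its log2 differences from Gipr-/- marrow were 1.83 (limma adjusted p = 0.108) and 2.00 (adjusted p = 0.143).

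**Figure D4:**
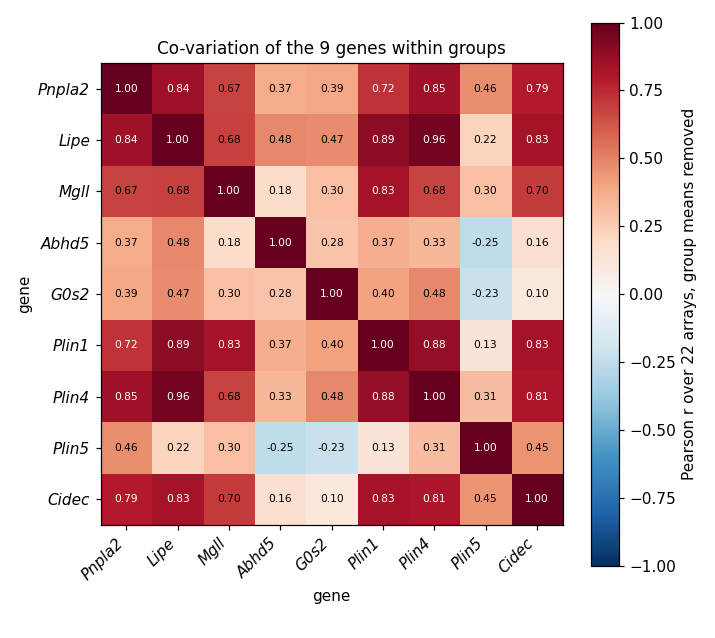
Pearson r between the 9 genes (rows and columns) over 22 arrays after each group's mean was subtracted. Pnpla2, Lipe, Mgll, Plin1, Plin4 and Cidec form a block with r from 0.67 to 0.96, and the values for G0s2, Abhd5 and Plin5 run from -0.25 to 0.48.

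Other genes of fat breakdown were counted in 4 lists. For double-knockout against Gipr-/- marrow in ingWAT, 2 of 21 genes of hormone control passed, both lower: Npr3, the clearance receptor of natriuretic peptides (-1.33, limma adjusted p = 0.0260), and Ptger3, an inhibitory prostaglandin receptor (-2.31, adjusted p = 0.0353). Of 10 further lipid hydrolases 2 passed and were lower, Lipa, the acid lipase of lysosomes (-1.51, adjusted p = 0.0260), and Daglb, a diglyceride lipase (-1.49, adjusted p = 0.0489). Of 19 further droplet proteins 2 passed and were lower. These were Plin2, the coat protein of small droplets (-1.07, adjusted p = 0.0383), and Bscl2, which encodes seipin (-1.14, adjusted p = 0.0493). Of 6 genes of glycerol and fatty acid handling none passed, and the smallest p-values were those of Aqp7, the glycerol channel (-0.56, adjusted p = 0.286), and the fatty acid transporter Cd36 (-0.31, adjusted p = 0.528). Lower calls made up 2.65% of all genes here. With replicate 2 as the only double-knockout array, none of these 6 genes and 0 of 14502 genes passed by limma, and the 6 differences ran from -2.02 (Daglb, adjusted p = 0.137) to -1.02 (Plin2, adjusted p = 0.255), with Ptger3 at -1.15 (adjusted p = 0.418). Over all genes 15 passed with the B cell score as a covariate and 5 with the macrophage score. Lipa and Plin2 are also abundant in lipid-laden macrophages, whose ingWAT score was -1.98 to -1.42 with double-knockout and 0.02 to 0.79 with Gipr-/- marrow, and the part of these cells in the values was not tested.

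In the other 5 comparisons of marrow none of the listed genes passed. Of all genes 0.234% were called for Gipr-/- against WT marrow in ingWAT and 0.00% in each of the rest. The smallest p-values for Gipr-/- against WT marrow in ingWAT were those of Plin2 (1.02, limma adjusted p = 0.0737), Cavin1 (1.17, adjusted p = 0.0896), Lipa (1.18, adjusted p = 0.0897), Daglb (1.02, adjusted p = 0.189), Ptger3 (1.72, adjusted p = 0.128), Gnai2 (0.51, adjusted p = 0.174), Cd36 (0.39, adjusted p = 0.406) and Aqp3 (-0.81, adjusted p = 0.529). In epiWAT they were those of Nceh1, a cholesterol ester hydrolase of macrophages (1.61, adjusted p = 0.404), the carboxylesterase Ces1d (-1.45, adjusted p = 0.554), and the regulatory subunits of protein kinase A Prkar2a (0.87, adjusted p = 0.554) and Prkar1a (0.50, adjusted p = 0.650). Slc27a1 (-0.99, adjusted p = 0.632), Aqp3 (0.46, adjusted p = 0.887), Vps13c (-0.50, adjusted p = 0.729) and Cidea (0.64, adjusted p = 0.729) led the other lists. With double-knockout against Gipr-/- marrow in epiWAT Nceh1 differed by -2.30 (adjusted p = 0.179) and Lipa by -1.93 (adjusted p = 0.270), Prkar1a by -0.78 (adjusted p = 0.235) and Prkar2a by -0.76 (adjusted p = 0.329), Plin2 by -1.88 (adjusted p = 0.337) and Plin3 by 0.61 (adjusted p = 0.384), and Cd36 by -0.97 (adjusted p = 0.475) and Slc27a1 by 0.59 (adjusted p = 0.582). For double-knockout against WT marrow in epiWAT Pde3b (-0.77), Npr3 (-0.83), Vps13c (-0.56), Bscl2 (-0.65), Ces1d (-0.80), Nceh1 (-0.69), Cd36 (-0.80) and Slc27a1 (-0.40) had the smallest p-values, each with an adjusted p of 0.999. In ingWAT they were those of Adcy5 (-0.93, adjusted p = 0.149), Npr3 (-0.64, adjusted p = 0.307), Pcyt1a (-1.20, adjusted p = 0.238), Bscl2 (-0.66, adjusted p = 0.304), Slc27a1 (-0.58, adjusted p = 0.400), Aqp7 (-0.23, adjusted p = 0.760), Ces1d (0.70, adjusted p = 0.423) and Pnpla6 (0.48, adjusted p = 0.505). Between depots, 2 listed genes passed with Gipr-/- marrow, Nceh1 (-2.63, limma adjusted p = 0.0251) and the fatty acid transporter Slc27a1 (1.58, adjusted p = 0.0479). There 0.614% of all genes were called, and the lists had 21, 11, 20 and 6 genes on the array. With double-knockout marrow, where 3.92% of all genes were called, 3 of the genes on these lists passed. They were Abhd12 (-1.73, limma adjusted p = 0.0175), Ces1f (2.74, adjusted p = 0.0260) and Cidea, a relative of Cidec typical of brown fat (2.36, adjusted p = 0.0209). Slc27a1 was no longer called without the doubted epiWAT arrays (1.43, adjusted p = 0.0703), and Nceh1 still was (-2.78, adjusted p = 0.0323). Without the ingWAT arrays with high B cell genes none of Abhd12 (-1.35, adjusted p = 0.152), Ces1f (2.33, adjusted p = 0.270) and Cidea (2.02, adjusted p = 0.241) was called, and Ces1f was not called without the doubted epiWAT arrays either (2.53, adjusted p = 0.0524). With WT marrow none passed, against 1.97% of all genes. In these a positive value is higher in ingWAT.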

How the data were processed

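RNA of 22 fat samples was hybridised to 1-colour Affymetrix arrays from 100 ng of total RNA, per the labels' protocols. The authors deposited 1 table of 21793 features, read here as log2 values. Partek 6.6 is named per the submitters' processing notes. The base of the log scale, the normalization and the genome build are not given in the sources used here. Values ran from 1.92 to 19.9, and their medians by array from 6.11 to 6.54. The number of arrays limits the precision. Platform symbols named 19341 features and 2452 are unnamed here. For 4 genes with several features, the one with the highest mean was used.

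Each depot was fitted with limma 3.58.1 (lmFit, eBayes with trend) in R 4.3.3, its 3 groups in one fit, after the 25% of genes with the lowest mean were left out, which left 14502. Depots, their interactions and the mean of both depots were compared in a fit of all 22 arrays in 6 groups. It took the arrays as independent, though the labels do not say whether the depots share mice. Tests were two-sided, adjusted by Benjamini-Hochberg over all genes tested, with a threshold of 0.05. The fit was tested on simulated data. Nothing in the labels ties each array to a mouse of its own, so the p-values cover the spread of these samples only, and replicates are numbered in accession order, which pairs nothing. Named were the 9 genes, the listed genes that passed (or, in comparisons of marrow, the 2 with the smallest p), and the 5 genes most like G0s2 and Pnpla2. The 9 genes, the gene lists and the comparisons were chosen with earlier results of these data known. Alternatives covered filters, scaling, moderation, array weights, covariates and left-out arrays.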

Additional observations from a re-analysis of the deposited data

Results flagged for a closer look

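Of 36 sets of 4 arrays (9 genes in 4 groups of that size), 2 held an array far from the other 3 by Dixon's test, and chance gives about 5% of sets. Both were in Plin5, the dimmest of the 9 genes. In ingWAT with WT marrow replicate 4 stood at 5.97, with the next highest at 5.53. In epiWAT with WT marrow replicate 3 stood at 5.26, with the next lowest at 5.8.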

How the results depend on the processing

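No paired analysis was possible because the labels give no replicate numbers that groups share. The 9 genes have 108 values with 2517 alternatives in all. None that was called changed sign, and G0s2 kept its sign in every alternative of the 4 comparisons with Gipr-/- marrow within a depot. In 53 of the 108 values the sign changed under some alternative (200 times in all), with neither value called. Calls were gained 39 times and lost 9 times.

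The numbers of the 9 genes called by limma are given here with the number called among all 14502 genes, which often moved with them. For double-knockout against Gipr-/- marrow in ingWAT 1 was called (505 genes in all). It was 0 with robust moderation (556 in all), with only the 2 groups compared (197), with the macrophage (5), adipocyte (205) or B cell score (15) as a covariate and without both arrays with high B cell genes (0). It was 2 with array weights (G0s2 and Mgll, 1797 in all), and 0 to 2 when single arrays were left out (2 without double-knockout replicate 2, 1382 in all). The G0s2 difference there ran from 3.04 to 5.35 and was called in 14 of 23 alternatives. One of these calls is the mean of both depots, which is another contrast and gave the lowest limma adjusted p (0.00295). For Gipr-/- against WT marrow in ingWAT the number was 0 (34 in all), and 1 with array weights (401), with all 22 arrays in one fit (97) and for the mean of both depots (83), and 0 to 1 when single arrays were left out. That 1 was G0s2, called without Gipr-/- replicate 3 (-4.76, 49 in all), and it was -2.46 (adjusted p = 0.323) without Gipr-/- replicate 2. In epiWAT the number was 0 for Gipr-/- against WT marrow (0 in all), and 1 with array weights (26), with the adipocyte score (558) and for the mean of both depots (83), and 3 with the macrophage score (G0s2, Lipe and Plin4, 295 in all). For double-knockout against Gipr-/- marrow it was 0 (0 in all), and 1 for the mean of both depots (278), 2 with the adipocyte score (G0s2 and Cidec, 516) and 3 with the macrophage score (G0s2, Lipe and Mgll, 500). Between depots it was 0 with each marrow. With Gipr-/- marrow (89 in all) it was 1 with array weights (623) and 6 with the macrophage score (2801). With double-knockout marrow (3.92% of genes in all) it was 1 with quantile normalization (515) or the adipocyte score (929), 4 with the macrophage score (2186) and 0 to 2 when single arrays were left out (2 without epiWAT double-knockout replicate 4, 862 in all). With WT marrow (286 in all) it was 1 with the adipocyte (784) and 2 with the macrophage score (1851). The depot dependence of double-knockout against Gipr-/- marrow (104 in all) had 1 with array weights (927) or the macrophage score (570). The cause was not tested. Leaving out arrays and the 2-group fits lower the number of arrays by construction. The B cell and muscle alternatives, those without doubted arrays and the mean of both depots were chosen after seeing the data. The mean of Plin5 lies below every array median, which limits what its values can show.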
